A study of Mus musculus with 10 samples.

Results

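The liver was compared with jejunum, ileum, distal colon and spleen of aged mice, gene by gene. The series holds 10 microarrays of male ICR mice, an outbred stock, at 28 months of age, and the 2 liver arrays were set against the 8 arrays of the other 4 tissues. From 8 months of age the mice had eaten a purified diet called AIN-93, either alone (control) or with LB81 yogurt at 1 to 2% of the diet, and each mouse was housed singly in a specific-pathogen free unit. RNA was extracted from each mouse and pooled before hybridisation, over 10 yogurt-fed or 9 control mice, so each tissue has 1 array per diet. A liver value therefore describes a pool, the spread between mice cannot be seen, and the p-values below measure how far the diet difference of a gene varied over the 5 tissues of the same mice. In a bulk sample, fewer cells of a type and less RNA per cell cannot be told apart.

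The liver is the main source of plasma proteins. Its hepatocytes make albumin, clotting factors, complement and most apolipoproteins, turn amino acid nitrogen into urea, make glucose and ketone bodies for other organs, convert cholesterol to bile acids and detoxify drugs. The small intestine shares part of this work, since it packs dietary fat into lipoproteins and also metabolises drugs, and the spleen shares with the liver the macrophages and open endothelium that clear the blood.

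All values are log2 expression values per probe set. The median of each array, between 5.42 and 5.50, was taken as its floor, and lower values were raised to it. Where a gene had several probe sets, the one with the largest average signal stood for it, and 13599 genes lay above the floor on at least 2 arrays. A pair of quantities describes a gene: the difference between the liver mean and the mean of the other 4 tissues, and the margin, which is the liver mean minus the mean of the brightest other tissue. A gene was called when the limma test had a Benjamini-Hochberg adjusted p under 0.05 and the difference was at least 2-fold, and it was called above or below each tissue when this held against every one of the 4. Since 3 of the 4 tissues are gut, the mean leans towards the gut.

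Liver was higher than the mean of the other tissues for 1517 genes (11.2% of those tested) and lower for 2030 (14.9%). It lay above each other tissue for 874 genes (6.43%) and below each for 579 (4.26%). The fold threshold set most of these calls, because 10748 genes passed the adjusted p alone and all but 2 of the 3549 genes with a 2-fold difference passed it. Both liver arrays exceeded all 8 other arrays for each of the 874 genes, and both lay under all 8 for each of the 579. The median difference over all genes was -0.13 and the median SE was 0.07. Of the 874 genes, 287 had a margin of at least 8-fold, 125 of at least 32-fold and 34 of at least 128-fold. For 204 of them all 8 other arrays were at the floor, so that the margin is a lower bound, the spread in the other tissues is close to 0 and the SE and p may be too small. Several probe sets above the floor on at least 2 arrays were present for 345 of the 874 genes, and in 224 of these each was at least 2-fold higher. The corresponding count was 127 of 303 genes below each tissue.

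**Figure D1:**
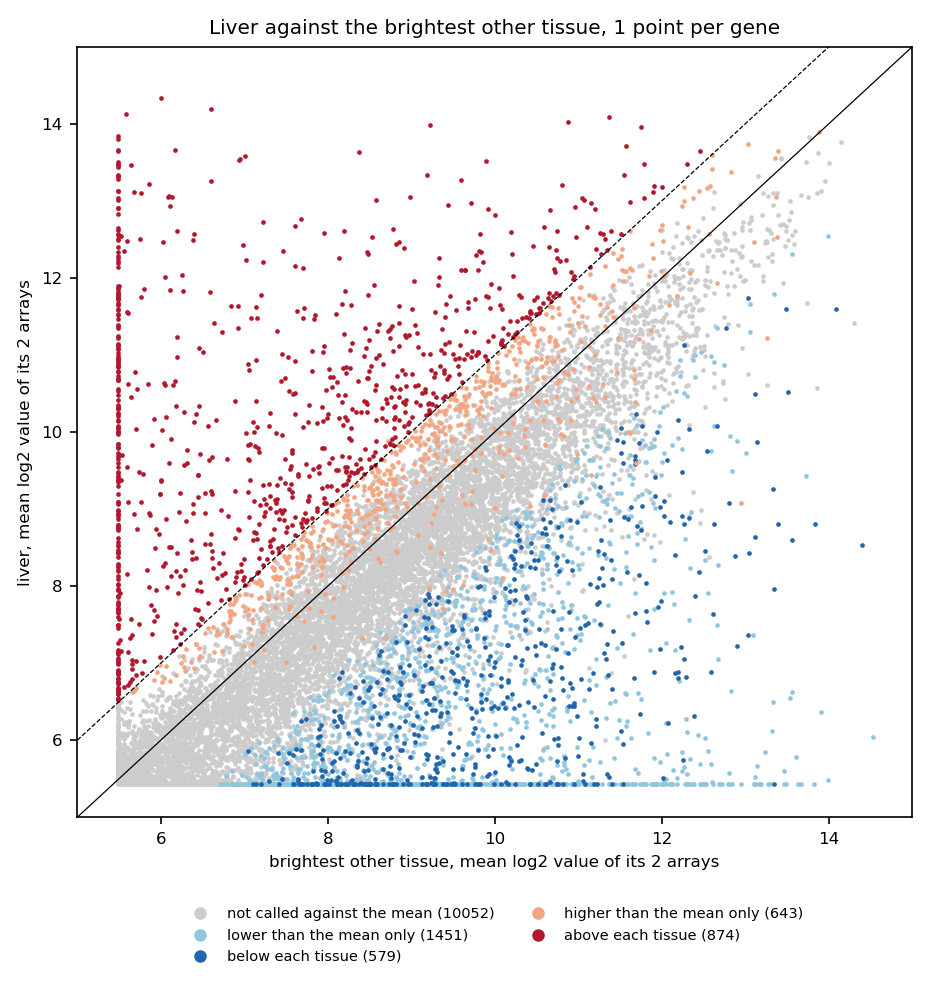
Mean log2 value of the 2 liver arrays (vertical axis) against that of the brightest other tissue (horizontal axis), 1 point for each of 13599 genes, coloured by call, with the line of equality solid and the 2-fold line dashed. The 874 genes above each tissue lie over the dashed line, and a column of them stands at the floor of the other tissues, where 204 genes had no other array above it.

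Signs of RNA quality differed between the tissues. Signal at the 3' end of actin exceeded that at its 5' end by 1.82 and 2.01 on the log2 scale on the yogurt and control liver arrays against 0.66 to 1.09 on the other 8. For Gapdh it was 0.86 and 0.98 in liver, 1.29 and 1.01 in spleen, and 0.05 to 0.23 in gut. The part of this in any result was not tested. The 100 brightest probe sets took 8.63% to 9.63% of the summed signal of an array.

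The promoters of 4 genes with margins among the 15 largest are shown as examples that hold words matching sites of hepatocyte transcription factors. HNF1, HNF4A, FOXA and C/EBP proteins are the liver-enriched transcription factors first found on such promoters. Each sequence runs 5′ to 3′ on the strand of the gene from 250 bases before to 50 after the annotated start, from RefSeq on mouse build GRCm38.p6, and capitals mark a matched word on either strand. Alb, encoding serum albumin, lies on chr5:90460620-90460919 (plus strand). Fgb and Fga, encoding the beta and alpha chains of fibrinogen, lie on chr3:83049814-83050113 (minus strand) and chr3:83025903-83026202 (plus strand). Ahsg, encoding the mineral-binding plasma protein fetuin-A, lies on chr16:22891765-22892064 (plus strand).
Alb: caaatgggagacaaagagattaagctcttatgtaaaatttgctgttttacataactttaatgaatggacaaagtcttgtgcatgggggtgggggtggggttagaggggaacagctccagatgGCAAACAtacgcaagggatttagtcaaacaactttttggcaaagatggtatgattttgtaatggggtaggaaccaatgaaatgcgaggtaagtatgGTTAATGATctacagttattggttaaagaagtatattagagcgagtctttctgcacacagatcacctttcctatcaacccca
Fgb: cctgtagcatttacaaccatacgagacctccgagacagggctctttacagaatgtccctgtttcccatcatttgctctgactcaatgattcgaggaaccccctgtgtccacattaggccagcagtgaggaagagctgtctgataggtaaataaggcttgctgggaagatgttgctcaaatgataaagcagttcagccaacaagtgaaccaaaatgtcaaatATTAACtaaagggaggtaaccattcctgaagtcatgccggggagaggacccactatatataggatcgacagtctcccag
Fga: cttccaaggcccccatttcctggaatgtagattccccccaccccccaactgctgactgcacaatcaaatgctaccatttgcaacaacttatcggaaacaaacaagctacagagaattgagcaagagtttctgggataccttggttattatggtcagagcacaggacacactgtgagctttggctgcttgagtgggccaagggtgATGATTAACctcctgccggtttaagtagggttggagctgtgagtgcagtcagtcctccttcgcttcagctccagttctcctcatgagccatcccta
Ahsg: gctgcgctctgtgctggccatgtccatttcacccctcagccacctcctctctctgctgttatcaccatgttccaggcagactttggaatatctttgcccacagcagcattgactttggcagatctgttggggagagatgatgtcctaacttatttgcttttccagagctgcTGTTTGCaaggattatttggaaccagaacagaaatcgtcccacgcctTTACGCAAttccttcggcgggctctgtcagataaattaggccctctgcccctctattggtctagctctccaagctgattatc

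The long HNF1 word began 32 bases before the start in Alb, and its reverse complement 46 bases before it in Fga, while Fgb held only the reverse complement of the short word, ATTAAC, 29 bases before it. Ahsg held the FOXA word TGTTTGC 79 bases before the start and the reverse complement of a C/EBP word 32 bases before it, and Alb held the reverse complement of TGTTTGC 128 bases before it. Among the 15 genes, 13 had a promoter in the table and 7 of those held at least 1 word. Hpx, Fgg, Bhmt, Akr1c6, Apcs and Itih4 held none, and the share of all promoters with any word was not counted. The words searched on both strands were GTTAATNAT and GTTAAT for HNF1, of which the second lies within the first, CAAAGTCCA and CAAAGTTCA for HNF4A, TGTTTAC and TGTTTGC for FOXA, and TTGCGCAA, TTGCGTAA and TTGCATCA for C/EBP.

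Promoters were available for 696 of the 874 genes above each tissue, 882 promoters in all. GTTAAT was present in 9.52% of these, in 17.9% of the 117 promoters of genes at least 32-fold above the brightest other tissue, in 3.52% of the 597 promoters of genes below each tissue, and in 7.10% of all 32851 promoters of the table. For the longer word GTTAATNAT the 4 shares were 2.72%, 6.84%, 0.168% and 0.801%. The HNF4A words gave 3.17%, 5.13%, 0.838% and 0.861%. The FOXA words gave 9.07%, 17.9%, 7.71% and 8.48%, and the C/EBP words 2.27%, 3.42%, 0.670% and 1.25%. Over the 13948 promoters of all genes tested, the 5 shares in this order were 4.93%, 0.538%, 0.932%, 6.79% and 1.16%. All 5 shares were thus highest in the genes with the widest margins. Base composition differed as well, with 49.0% G and C in those promoters and 56.4% in all above each tissue. It was 60.2% in those below, 59.9% in genes tested and 53.8% in the table, and its part was not tested. A match describes letters in this window and does not show that a factor binds there.

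Plasma proteins had the widest margins. The 15 genes farthest above every other tissue were Apoa2, Hpx, Alb, Fgb, Fgg, Bhmt, Plg, Fga, Pzp, Ahsg, Kng1, Akr1c6, Apcs, Serpinc1 and Itih4, and all but the enzymes Bhmt and Akr1c6 encode secreted plasma proteins. Apoa2, a major protein of high density lipoprotein, read 14.12 and 14.13 on the yogurt and control liver arrays, 5.51 and 5.65 in jejunum and the floor elsewhere, a margin of 8.54 or 373-fold. Hpx, encoding the haem scavenger hemopexin, read 13.89 and 13.81 in liver and the floor on all 8 other arrays, at least 328-fold lower. Alb read 14.36 and 14.32 in liver, and only distal colon rose above the floor, at 5.83 and 6.18, a 323-fold margin. Fgb, at 13.84 and 13.78, was at least 319-fold higher in liver. For 12 of the 15 all other arrays were at the floor, so their order is that of liver signal on different probes and has no further meaning. All 15 passed the test against each of the 4 tissues, and the largest of these limma adjusted p was 3.56e-10, for Serpinc1 (antithrombin).

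**Figure D2:**
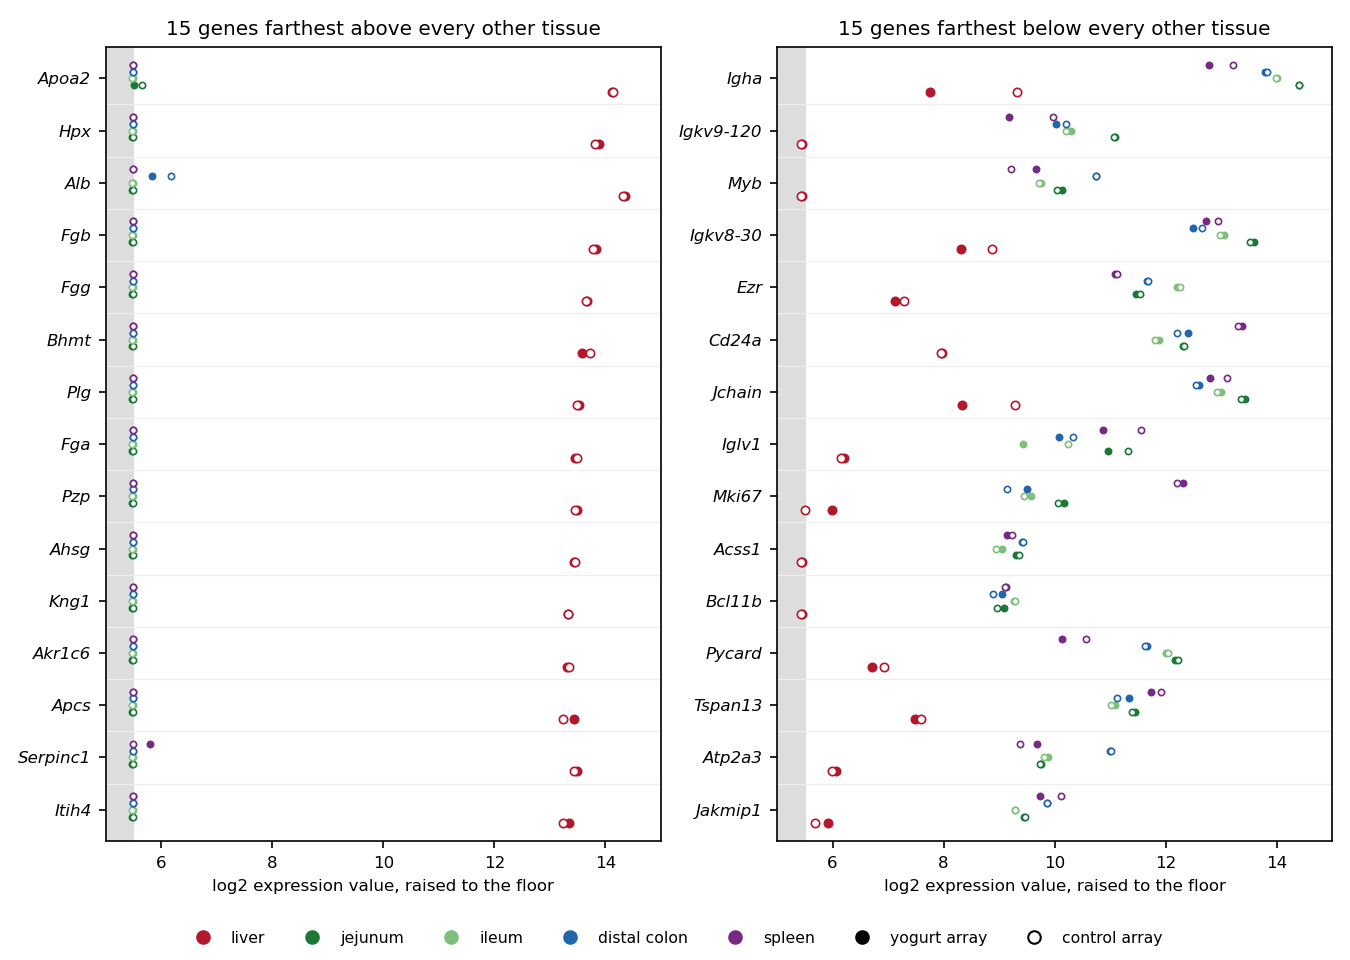
Log2 expression values on each of the 10 arrays for the 15 genes farthest above (left) and the 15 farthest below (right) every other tissue, with filled circles for yogurt and open circles for control arrays and the grey band at the floor. Apoa2 read 14.12 and 14.13 in liver against at most 5.65 elsewhere, whereas Igha read 7.76 and 9.32 in liver against at least 12.78 elsewhere.

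Lists of liver functions, cell types and housekeeping genes were counted against the shares over all genes. All 22 tested plasma carriers and protease inhibitors lay above each other tissue, with a median margin of 5.93 against -0.53 over all genes. These include Hpx, Alb and Pzp, the last an alpha-2-macroglobulin relative. The 22 coagulation and fibrinolysis genes were likewise all above each tissue (median margin 6.11), 13 of them with every other array at the floor, led by the 3 fibrinogen chains, Plg and Kng1, the precursors of plasmin and bradykinin. In the complement list 18 of 21 genes were above each tissue. The exceptions were C1qa, C1qb and C1qc, the C1q chains that macrophages make. Spleen was at least as bright as liver for all 3, and C1qa and C1qc had margins of -0.92 and -0.81 with spleen the brightest. C9, a component of the lytic pore, had a margin of at least 7.64, and C8g one of 7.03.

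Acute phase proteins, secreted in inflammation, were above each tissue in 15 of 17 cases (median margin 4.01). The plasma proteins Apcs, Orm1 and Saa4 had margins of at least 7.84, 7.65 and 7.01. Serum amyloid A genes differed among themselves. Saa1 read 13.50 and 13.24 in liver, 12.85 and 12.81 in distal colon, 11.39 and 10.82 in ileum, and the floor in jejunum and spleen, a margin of 0.54. Saa2 read 13.45 and 13.10 in liver but 9.53 and 9.66 in distal colon, a margin of 3.68. Saa1 was therefore higher than the mean but not above each tissue, and since the genes are close relatives their probes may bind both transcripts. Il1rn, the interleukin-1 receptor antagonist, was not called. Hormones, binding proteins and receptors of the liver were higher in all 25 cases and above each tissue in 22. Hamp, the iron hormone hepcidin, at 11.91 and 11.83 was at least 83.5-fold higher, Igfbp1 at least 77.5-fold, and Igf1 14.6-fold above spleen. Mup3, a major urinary protein, was at least 107-fold higher.

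**Figure D3:**
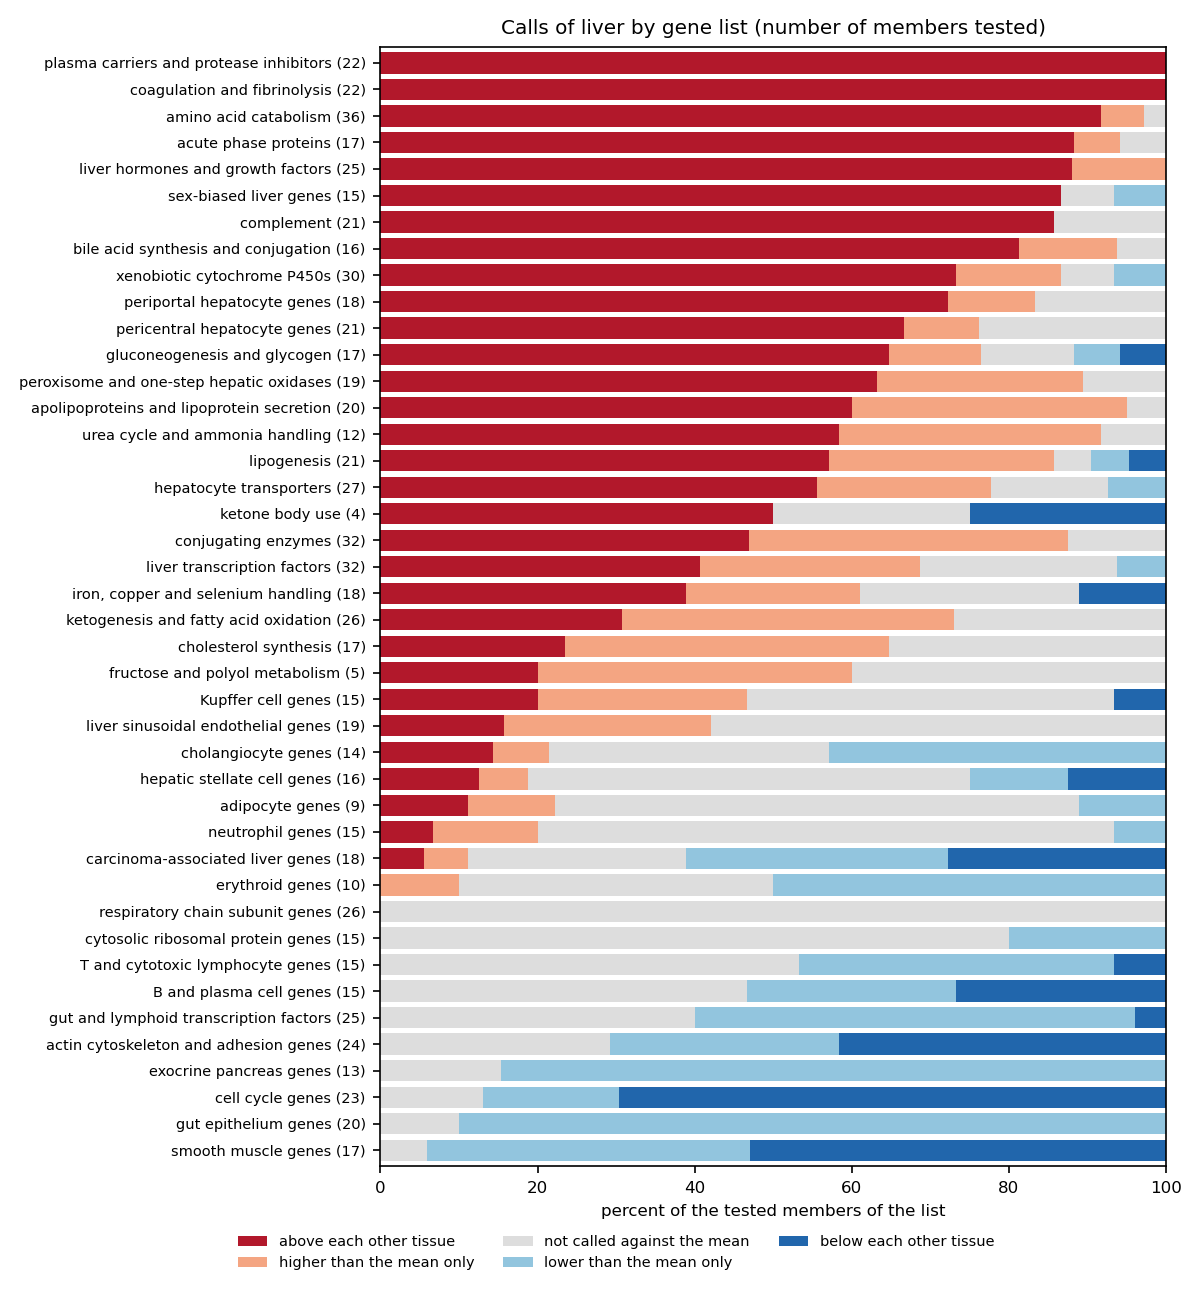
Share of the tested members of each gene list that was called above each other tissue (dark red), higher than the mean only (light red), not called against the mean (grey), lower than the mean only (light blue) or below each other tissue (dark blue), with the number tested in brackets and lists under 4 members left out. All 22 plasma carriers and all 22 coagulation genes are dark red, none of the 26 respiratory chain genes was called, and 16 of 23 cell cycle genes are dark blue.

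Metabolic genes were often shared with another tissue, which is given here by counts with no test of the difference. In the 5 lists of secreted proteins and hormones, 102 of 106 distinct genes were higher than the mean and 98 (92.5%) above each tissue. In 13 lists of metabolism, lipoproteins and transport, 235 of 277 were higher and 164 (59.2%) above each. Of the 71 metabolic genes that were higher without being above each tissue, jejunum was the brightest other tissue for 45, ileum for 15, distal colon for 8 and spleen for 3. The 4 such genes of the secreted lists had distal colon as the brightest.

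Lipoprotein genes showed this sharing. Of 20 apolipoprotein and secretion genes, 19 were higher than the mean and 12 above each tissue. Apoa1, the other main protein of high density lipoprotein, read 13.86 and 13.93 in liver, 13.85 and 13.93 in ileum, 13.57 and 13.71 in jejunum and the floor in distal colon and spleen. Its margin was 0.00, and liver and ileum did not differ (adjusted p = 0.950 by limma). Apoa4, an apolipoprotein of fat absorption, was lower in liver (12.51 and 12.43) than in jejunum (13.06 and 13.14), a margin of -0.63 (adjusted p = 0.000628 by limma), and the lipoprotein lipase cofactor Apoc2 had a margin of -0.28. Mttp, the lipid transfer protein that loads Apob, was 1.29 lower in liver than in jejunum on the log2 scale, and Apob itself had a margin of 0.69. By contrast Apoa5 had a margin of 7.44, and Apof and Apon had margins of at least 7.42 and 6.91.

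Ammonia and amino acid genes fell into separate patterns. Urea cycle genes were higher in 11 of 12 cases and above each tissue in 7. Arg1, the arginase that releases urea, read 12.83 on both liver arrays and the floor on every other, at least 163-fold. Cps1, which fixes ammonia in the first step, read 13.15 and 13.26 in liver and 12.58 on both jejunum arrays, a margin of 0.62. Otc, the next enzyme, had a margin of 1.16 over jejunum. Liver exceeded jejunum by less for these early steps than for Arg1, which was at the floor in jejunum. Amino acid breakdown was above each tissue in 33 of 36 cases (median margin 4.04). Bhmt, which remethylates homocysteine, was at least 287-fold higher, Hgd of tyrosine breakdown at least 136-fold, and Mat1a, the liver S-adenosylmethionine synthetase, at least 128-fold. Peroxisomal and other oxidases were higher in 17 of 19 cases, with urate oxidase Uox 124-fold above distal colon. The alcohol dehydrogenase Adh1 had a margin of -0.31 against distal colon.

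Glucose and fat genes were mixed. Of 17 genes of gluconeogenesis and glycogen, 13 were higher, 11 above each tissue and 2 lower. Gys2, the liver glycogen synthase, was at least 26.8-fold higher, and G6pc, which releases free glucose, was 5.24-fold above jejunum. Lipogenic genes were higher in 18 of 21 cases and above each tissue in 12, with a margin of 6.12 for the lipogenic regulator Thrsp and of at least 6.03 and 5.18 for the elongases Elovl2 and Elovl3. Cholesterol synthesis was higher in 11 of 17 but above each tissue in 4, with a median margin of 0.25 and ileum the brightest other tissue for most members. Fatty acid oxidation and ketogenesis genes were higher in 19 of 26 and above each tissue in 8. Fabp1, the fatty acid carrier, read 13.68 and 13.63 in liver and 13.30 and 13.50 in jejunum, a margin of 0.25. None of 26 respiratory chain subunit genes was called in either direction (26.1% of all genes were), and their median difference was 0.07. This averages tissues on either side of liver. Jejunum was at least as bright as liver for 22 of the 26, distal colon for 18, ileum for 14 and spleen for 0.

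Ketone bodies are made in liver and burned elsewhere. Oxct1, the transferase that other tissues need to use them, read 7.63 and 7.73 in liver and from 10.65 to 11.87, median 11.50, on the other 8 arrays. The difference was -3.67 (SE 0.08, limma adjusted p = 3.52e-09), liver lay 8.19-fold below spleen, the dimmest other tissue, and all 4 probe sets of the gene gave differences from -3.72 to -3.44. Bdh1 and Acat1, whose enzymes work in both directions, were above each tissue, each by a margin of 1.02.

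Bile acid and drug genes separated organs by isoform. Of 16 bile acid synthesis genes, 15 were higher and 13 above each tissue. Cyp7a1, the rate-limiting enzyme, read 9.01 and 9.83 in liver and the floor elsewhere, at least 15.3-fold. Slc10a1, which takes bile acids up from blood, and Abcb11, which exports them into bile, were at least 80.2-fold and 49.9-fold higher. Slc51a and Slc51b, which form the basolateral exporter of the ileum, were lower, with values of 5.45 and 5.42 for Slc51a in liver against 12.07 and 12.14 in ileum. Among 30 xenobiotic cytochromes P450, 26 were higher and 22 above each tissue, with Cyp2c29 at least 140-fold and Cyp1a2 at least 37.9-fold higher. Cyp2c55 and Cyp2c65 were lower, and Cyp2c55 read 11.46 and 9.63 in distal colon against the floor on the yogurt liver array and 5.48 on the control one. Cyp3a11 was 2.25-fold above jejunum. Of 32 conjugating enzymes, 28 were higher but only 15 above each tissue, with jejunum the brightest other tissue for most. Many P450 and transferase genes have close relatives whose transcripts their probes may also bind.

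Both hepatocyte zones were represented. Periportal genes, of the lobule's inflow side, were above each tissue in 13 of 18 cases, and pericentral genes in 14 of 21. Glul, the glutamine synthetase of the last pericentral cells, had a margin of 0.01 over distal colon and was not called. Sex-biased liver genes were above each tissue in 13 of 15 cases. Cyp4a12a and Hsd3b5, which male mice express, had margins of at least 5.87 and 5.65.

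Some related genes split between liver and the other tissues. A set of 13 pairs of relatives, chosen after their values were seen, is given as a description, and its counts follow from that choice. The first member was higher in liver in all 13, above each tissue in 8, and the second was lower in 12, below each in 6. Arg1 differed by 7.35 from the mean of the other tissues and Arg2, the second arginase, by -3.37, with Arg2 at 12.26 and 12.35 in jejunum. For the bisphosphatases Fbp1 and Fbp2 the differences were 5.03 and -3.67. For the carboxykinases Pck1 of the cytosol and Pck2 of mitochondria they were 4.38 and -2.29. Scd1 and Scd2, the desaturases, gave 4.06 and -3.13, and the triglyceride enzymes Dgat2 and Dgat1 gave 2.49 and -1.26. Pyruvate kinases gave 1.49 for Pklr and -3.50 for Pkm, and the glucose transporters 4.42 for Slc2a2 and -1.07 for Slc2a1. The hepcidin regulator Tfr2 differed by 4.65 and the iron importer Tfrc by -2.03. The exception was the bile acid carrier of the ileum, Slc10a2, which had a mean of 7.76 in liver, read 10.75 and 10.61 in ileum and lay close to the floor elsewhere, a difference of 0.96.

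**Figure D4:**
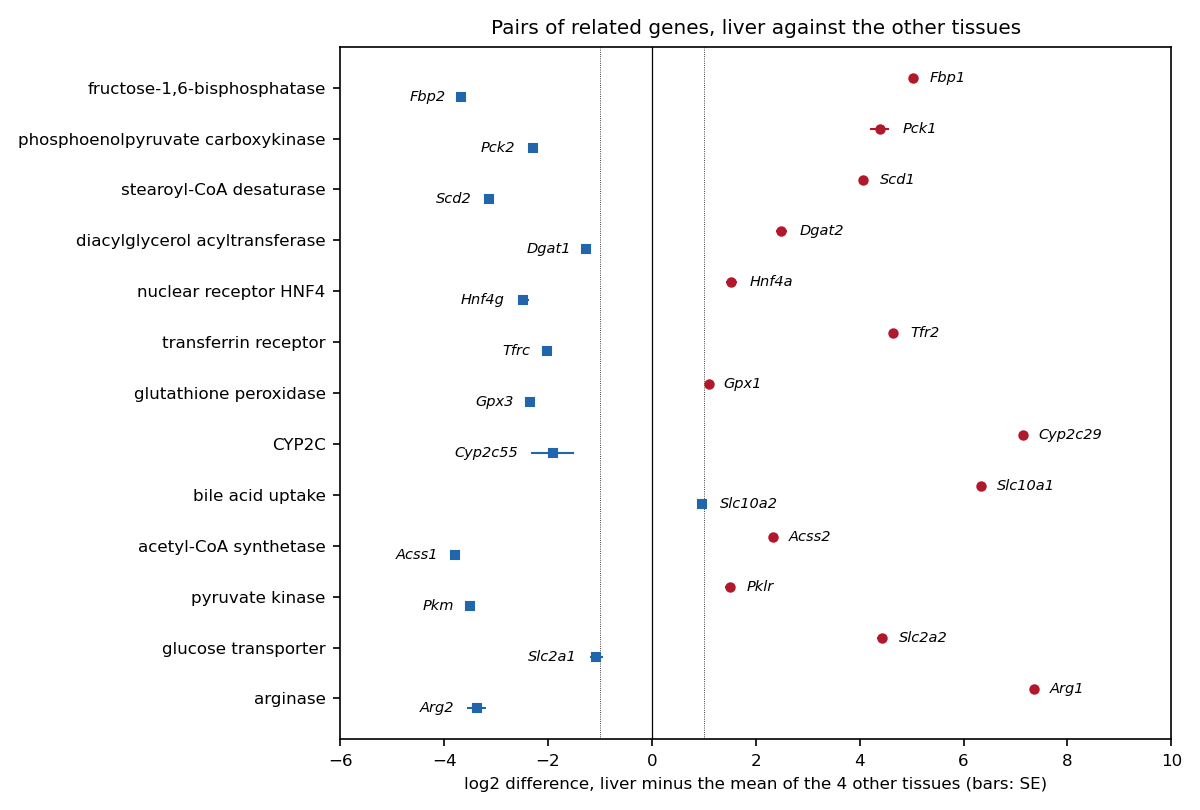
Log2 difference between liver and the mean of the 4 other tissues for 13 pairs of related genes, red circles for the first and blue squares for the second member, with bars for the SE from limma and dotted lines at 2-fold. The first members lie right of 0, Arg1 at 7.35, and all second members but Slc10a2 at 0.96 lie left of it.

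Liver transcription factors were often shared with the gut. Of 32, 22 were higher than the mean, 13 above each tissue and 2 lower, and the median margin was 0.44. Prox1 and Onecut1, factors of early liver development, had margins of at least 3.28 and of 3.27. Cebpa had a margin of 1.54. Hnf4a, which hepatocytes and enterocytes share, had a mean of 12.02 in liver and read 12.03 and 12.04 in ileum, 11.66 and 11.65 in jejunum, 11.85 and 11.89 in distal colon and 6.66 and 6.16 in spleen. Its difference of 1.53 rested on spleen and was 0.17 without the spleen arrays. Its relative Hnf4g was at the floor on both liver arrays, while jejunum read 10.00 and 9.61. The bile acid receptor Nr1h4 had a margin of -0.43 with ileum the brightest, Foxa1 one of -1.99 with distal colon, and Gata4 one of -2.59 with jejunum. Of 25 transcription factors of gut and lymphoid cells none was higher and 15 were lower than the mean (14.9% of all genes were). Only 1 was below each tissue, near the share of 4.26% over all genes. Cdx1, Cdx2 and Klf5 were among those at the floor on both liver arrays.

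Genes of the other liver cell types were partly shared, and several were brightest in spleen. Kupffer cell genes, of the liver macrophages, were higher in 7 of 15 cases and above each tissue in 3. Clec4f, a lectin of Kupffer cells, read 9.77 and 9.80 in liver and the floor elsewhere, at least 19.7-fold. Vsig4, a complement receptor, read 10.61 and 10.60 and was 21.9-fold above distal colon, and Folr2 had a margin of 1.22. Cd5l read 11.09 and 11.03 in liver, 10.70 and 10.91 in spleen and the floor in gut, a margin of 0.25. Marco, Clec1b and Spic were brighter in spleen, with margins of -1.49, -0.71 and -3.49. With gut averaged first, so that spleen weighs as much as gut, Marco differed by 0.75 and Cd163 by 0.55, and both calls were lost. Cd163, a haemoglobin scavenger, differed by 1.01 from the mean and by 0.50 without jejunum, and its call was lost without the yogurt array of liver, spleen, ileum or distal colon or the control array of jejunum, with values from 0.92 to 0.99. Spleen was at least as bright as liver for 11 of the 15 genes. The summed level of the list, in antilogged units, was 15694 and 15182 in liver, 28452 and 30737 in spleen and 6631 to 11154 in gut.

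Sinusoidal endothelial genes were higher in 8 of 19 cases and above each tissue in 3, Clec4g (margin 2.54), Oit3 (at least 2.46) and Gpr182 (1.58). The calls of Mrc1, Fcgr2b and Kdr were lost with gut averaged first, at 0.73, 0.81 and 0.93. Stab2, a scavenger receptor, read 8.99 and 9.26 in liver, 9.33 and 9.41 in spleen and the floor in gut. Stellate cell genes were higher in 3 of 16 cases, with Colec11 and Reln above each tissue (margins of at least 2.96 and of 2.24), and lower in 4. One of these was the smooth muscle actin Acta2, at -3.66, whose probe set can bind related transcripts, and another probe set of it gave -0.65. Bile duct genes were higher in 3 of 14 and lower in 6. Over all genes tested 11.2% were higher and 14.9% lower, so 3 higher genes in either list are not far from that share. Pkhd1, a cilium protein, was at least 3.11-fold higher. Krt7 was at the floor in liver and Krt19 read 5.70 and 5.64, against at least 12.57 for Krt19 in gut, so the defining keratins of bile ducts were at or near the floor. Krt18, which hepatocytes express, was higher than the mean by 1.26 with spleen at the floor, and differed by -0.23 without the spleen arrays.

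**Figure D5:**
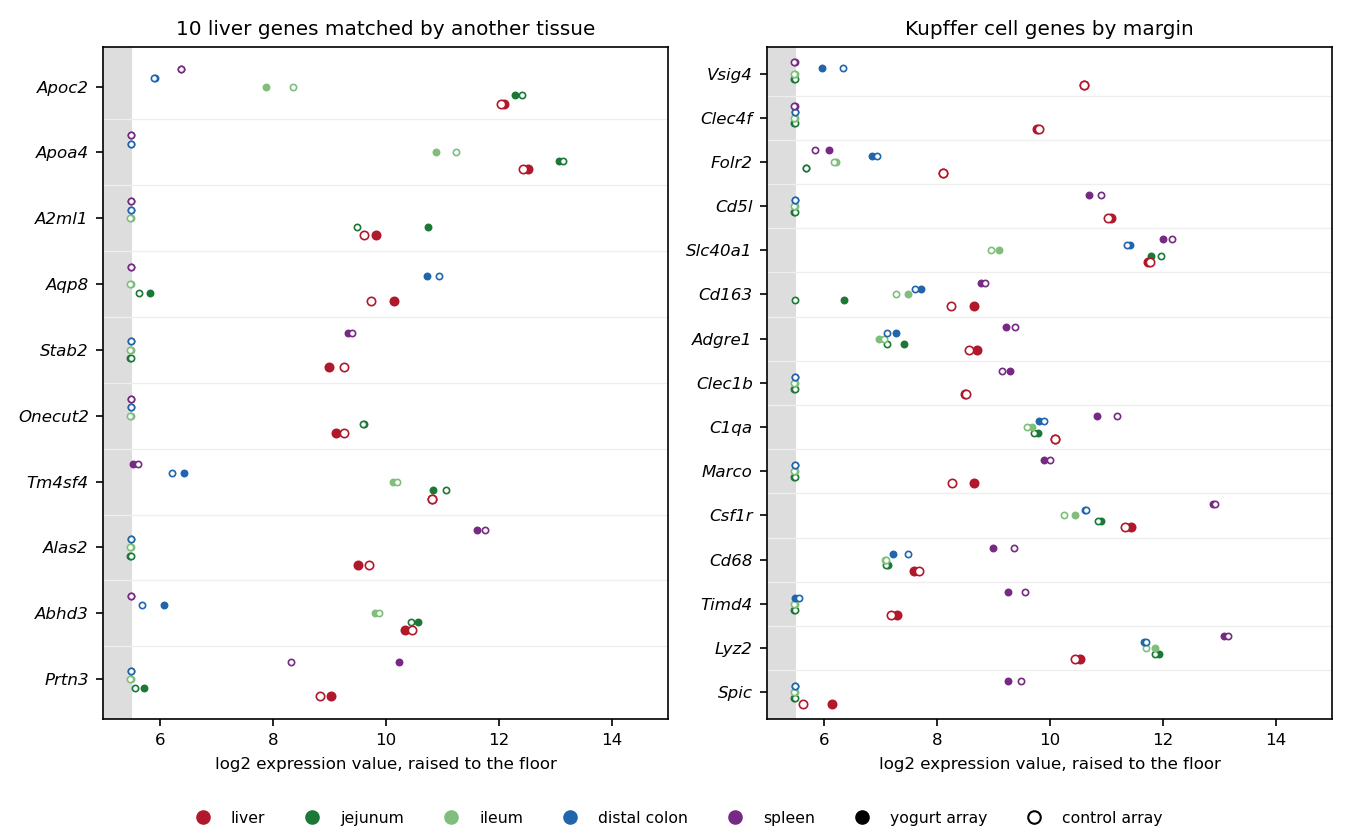
Log2 values on each of the 10 arrays for the 10 genes with the largest difference among those called higher in liver but matched or exceeded by another tissue (left) and for the 15 Kupffer cell genes ordered by margin (right), filled for yogurt and open for control arrays. Jejunum matches liver for Apoc2 and Apoa4, distal colon for Aqp8 and spleen for Stab2, while Clec4f and Vsig4 stand alone in liver at 9.77 to 10.61.

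For 115 genes the liver was higher than the mean and yet did not exceed another tissue. The 10 named from this group were not called when the other tissues formed 1 class, which puts the spread between them into the error. Jejunum was brightest for 37, spleen for 36, ileum for 21 and distal colon for 21. Besides Apoc2, Apoa4 and Stab2, the 10 with the largest differences were A2ml1, Aqp8, Onecut2, Tm4sf4, Alas2, Abhd3 and Prtn3. Aqp8, a water channel, read 10.15 and 9.74 in liver, 10.72 and 10.94 in distal colon and at most 5.83 elsewhere. Onecut2, a relative of Onecut1, read 9.12 and 9.25 in liver, 9.62 and 9.60 in jejunum and the floor elsewhere. Alas2, the erythroid enzyme of haem synthesis, read 9.50 and 9.70 in liver, 11.62 and 11.75 in spleen and the floor in gut. It was the only erythroid gene of 10 that was higher (11.2% of all genes were), and 5 were lower (14.9% of all genes were). Slc4a1, Hemgn and Gata1 were among the 5 at the floor on both liver arrays, while Rhd read 5.87 and 5.72 there. The neutrophil protease Prtn3 read 9.04 and 8.83 in liver and 10.23 and 8.33 in spleen, while the granule genes Elane, Ctsg and Mpo were not called. Of 15 neutrophil genes 3 were higher than the mean (11.2% of all genes were), Prtn3, S100a8 and the acute phase gene Lcn2. S100a8 read 9.71 and 8.45 in liver but 13.24 and 12.65 in spleen, and differed by -0.45 with gut averaged first. The summed level was 7958 and 5466 in the yogurt and control liver, 34422 and 18823 in spleen and at most 1043 in gut.

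Most listed genes of dividing cells, smooth muscle and the actin cytoskeleton were lower in liver, as were several immunoglobulin genes. The 15 genes farthest below every tissue were Igha, Igkv9-120, Myb, Igkv8-30, Ezr, Cd24a, Jchain, Iglv1, Mki67, Acss1, Bcl11b, Pycard, Tspan13, Atp2a3 and Jakmip1. Igha, the heavy chain of immunoglobulin A, read 7.76 and 9.32 on the yogurt and control liver arrays and from 12.78 to 14.41, median 13.91, on the other 8, so liver lay 22.0-fold below spleen. The 2 liver arrays were farther apart here than for most genes. Jchain, which links immunoglobulin A dimers, read 8.33 and 9.28 and lay 13.6-fold below distal colon. Ezr, which ties actin to the membrane, read 7.13 and 7.29 against 11.09 to 12.26, although its other probe set gave a difference of -0.04. Myb and Bcl11b, factors of progenitors and T cells, were at the floor in liver, at least 16.1-fold and 11.6-fold below the dimmest tissue. Of the other probe sets of Pycard and Jakmip1 that rose above the floor on some arrays, the lowest in size gave -0.25 and -0.21. For Atp2a3 the probe set used gave -4.01 and the other, above the floor on all 10 arrays, gave -0.66. The other 2 probe sets of Acss1 were at the floor on all arrays.

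Mki67, a marker of dividing cells, read 5.98 and 5.50 in liver, 9.14 to 10.17 in gut and 12.31 and 12.21 in spleen. Of 23 cell cycle genes, 20 were lower and 16 below each tissue (median difference -2.18). Birc5 and Nusap1, which act in mitosis, were at the floor in liver, and Top2a, a topoisomerase of dividing cells, read 6.03 and 5.56. Of 24 actin cytoskeleton and adhesion genes, 17 were lower and 10 below each tissue. S100a6 lay 9.78-fold and Actg1 3.16-fold below the dimmest other tissue. The liver 3' over 5' ratio of actin given above was the highest of the arrays, and its part here was not tested. Of 15 cytosolic ribosomal protein genes 3 were lower (14.9% of all genes were). The median difference of the 15 was -0.80 against -0.13 over all genes.

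Markers of neighbouring tissues were mostly lower in liver, with exceptions. Of 17 smooth muscle genes 16 were lower, and their summed antilogged level was 7663 and 7560 against 10214 to 63692 elsewhere, and Myh11, Cnn1 and Actg2 were at the floor in liver. The part of these cell types in the genes lower in liver was not tested. Gut epithelium genes were lower than the mean in 18 of 20, but none was below each tissue. Their summed level was 4269 and 4375 in liver, close to 4090 and 3732 in spleen. Vil1, Muc2 and Cdx2 were at the floor on both liver arrays. Tff3 and Cdhr5 lay above the floor in liver, with means of 9.43 and 8.37, and above spleen. Exocrine pancreas genes were lower than the mean in 11 of 13, with none below each tissue. Their summed level was highest in jejunum, at 94567 and 42251 on the yogurt and control arrays. It was 17474 and 17053 in ileum, 21657 and 21844 in distal colon, 1863 and 1922 in liver and 1012 and 962 in spleen. Zg16, a member of the list, read 13.64 to 14.02 over jejunum, ileum and distal colon and differed by -6.44 from the mean. Without the jejunum arrays the differences of Cela3b, Pnliprp1, Prss2 and Cela2a were 0.32, 0.14, 0.14 and 0.20. B and plasma cell genes were lower in 8 of 15 and T and cytotoxic cell genes in 7 of 15, with none higher. Without the spleen arrays Cd22, Cr2 and Ms4a1 of the B cell list differed by -0.39, -0.42 and -0.84, and Cd3d, Nkg7, Klrd1 and Ccl5 of the T cell list by -0.89, -0.67, -0.43 and -0.77, and none of these was called. The summed level of the T cell list was 1455 and 1368 in liver, close to the 1442 to 1684 of ileum and distal colon. Ighm remained bright in liver, at 11.21 and 11.64 against 14.26 and 14.35 in spleen. Of 9 adipocyte genes, Car3 (margin 3.62) and Lpl were higher and Fabp4 lower, against 11.2% higher and 14.9% lower over all genes. The call of Lpl was lost without either liver array, the yogurt spleen array or the control distal colon array (0.95 to 1.25), and that of Fabp4 without the yogurt liver array (-0.95). Adipoq was at the floor in liver. The summed level of the list was 14242 and 13510 in liver and 1846 to 4946 elsewhere. Most of the liver sum was Car3, at 13.56 and 13.48 on the log2 scale, and 6 of the 9 genes were not called. The median difference of the list was -0.18. Of 18 genes associated with liver carcinoma, 2 were higher (11.2% of all genes were) and 11 lower (14.9% of all genes were). Afp, the fetal albumin relative, read 6.85 and 6.71 in liver and 9.36 and 9.42 in jejunum.

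The strongest liver genes were also counted on the other arrays. Of the 125 genes with a margin of at least 32-fold, 27 and 25 were above the floor on the yogurt and control jejunum arrays, 18 and 21 in distal colon, 17 and 15 in ileum, and 15 on each spleen array. The highest such value outside liver was that of Rbp4, the retinol carrier, at 8.38 and 8.36 in distal colon.

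Few genes were called for a liver difference that depended on the diet. With 1 liver pool per diet, a gene that was not called may still differ. Among genes above each tissue the yogurt and control liver arrays differed by a median of 0.11, and 5 of 874 genes differed at least 2-fold. A liver-by-diet term was called for 17 genes (0.125% of those tested), with 769 at an unadjusted p under 0.05. With the values as deposited and no floor 14 genes were called, and 5 of them were among the 17. Cyp17a1, a steroid hydroxylase, read 7.93 and 5.78 on the yogurt and control liver arrays and the floor elsewhere, so its liver excess was 2.15 larger with yogurt (SE 0.07, limma adjusted p = 0.00278). Asns, asparagine synthetase, was lower in liver by 1.91 with yogurt and by 2.97 with control. Fgf21, a hormone of fasting and amino acid stress, read 7.06 and 6.22 in liver and the floor elsewhere. The error of this test is the spread of the diet difference over the other 4 tissues. Where those are at the floor it is close to 0, and the liver side has 1 pool per diet, so no replicate of the liver stands behind these calls.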

How the data were processed

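The authors' deposited table holds 1 log2 expression value per probe set and array, for 45101 probe sets of an Affymetrix mouse array. Per the submitters' processing notes MAS5 and affy were used, in roles and versions that the notes leave unstated, as they do the scaling between arrays. Per the labels' protocols, 100 ng of pooled RNA entered the 3' IVT Express kit. The number of arrays limits the precision. Groups came from the sample labels, which give tissue and diet.

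Of the 45101 probe sets, among them 64 array controls, 34958 carried 1 gene symbol in the platform annotation and were used. Another 932 with several symbols and 9211 without one were not used, and 34754 of the named ones were matched to current symbols by gene ID. This gave 18194 genes. In limma 3.58.1 (R 4.3.3) tissue and diet were fitted together, with empirical Bayes moderation and a mean trend, over all 13599 genes at once. The fit has 4 residual degrees of freedom (7.54 with the prior). A second fit added a term for liver by diet. The code was tested on simulated data.

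The comparison and the 43 gene lists (747 of 855 genes matched, 734 tested) were chosen with earlier results of these data known. Named are the 15 genes farthest above and below each tissue, the 10 shared genes with the largest difference, the 3 called members of each list with the largest margin, members of the transcription factor and cell marker lists, and genes with a diet difference. Other genes named for their role were chosen after their values were seen. In all, 29 alternatives were tried.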

Additional observations from a re-analysis of the deposited data

Results flagged for a closer look

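The difference between liver and the other tissues itself differed between the diets for 17 genes, and the 10 with the smallest p are given as yogurt minus control on the log2 scale. The value was 2.15 for Cyp17a1, 1.20 for Obp2a, an odorant binding protein, 1.12 for Sult1e1, an oestrogen sulfotransferase, 1.09 for Mup5, 1.06 for Cyp4a31, 0.93 for Rps4l and 0.84 for Fgf21. These 7 genes were at the floor on all 8 other arrays, where the error of the test is close to 0. For Dmbt1, a mucosal glycoprotein, the value was -1.70, with 5.72 and 7.28 on the yogurt and control liver arrays and 12.05 to 13.41 in gut. Il1rn gave 1.93 and Asns 1.06. Without the floor 5 of the 17 calls were made. Each rests on 1 liver array per diet, and the causes were not tested.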

How the results depend on the processing

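Of the counts of genes called, 4 moved by over 1.5 times. Genes below each tissue numbered 360 with the mean of all probe sets (348 of them among the 579) and 1333 without the spleen arrays (all 579 included). Genes lower than the mean numbered 823 when the other tissues formed 1 class, a fit that gives no test per tissue, and 98 of 313 named genes lost their call there. Genes with a diet difference numbered 11 without the mean trend, and 14 without the floor, of which 5 were among the 17. Leaving out 1 array gave 1294 to 1524 genes higher, 2008 to 2060 lower, 658 to 882 above each tissue and 565 to 595 below each. The lower ends for higher and above each came without a liver array, since genes above the floor in liver alone then fail the filter. Tissues of the same pool of mice were paired through the diet block, and without it the counts of the 4 calls were the same. Single genes reversed as follows. With gut averaged first, Cdhr5 differed by 0.066, S100a8 by -0.45 and Chil3 by -1.13. Without jejunum, Cela3b gave 0.32, Pnliprp1 0.14, Prss2 0.14 and Cela2a 0.20. Without spleen, Rhd gave 0.27, Krt18 -0.23, Krt8 -1.91, Fabp2 -1.62, Ngp 1.39 and Klf1 1.36. The causes were not tested. Pooling hides the spread between mice, and genes at the floor give lower bounds.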
